A study of Mus musculus with 10 samples.

Results

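Serpins are a family of proteins named for serine protease inhibition, and their transcripts were compared between livers of Nrf2Act-hep mice and wild-type (WT) mice. The family was taken as every Ensembl identifier of the deposited table whose GRCm38 symbol begins with Serpin, without the pseudogenes whose symbol ends in -ps, which gave 41 genes of 18869 identifiers. By clade these were 20 Serpina, 11 Serpinb, 2 Serpine, 2 Serpinf and 2 Serpini genes and 1 gene each of Serpinc, Serpind, Serping and Serpinh. On the chromosomes they were clustered, with 19 on chromosome 12, 7 on chromosome 13 and 6 on chromosome 1. The rule left out 3 pseudogenes, which held 7 reads over all libraries, and kept Serpina3h, which the annotation lists as a transcribed pseudogene. Another 22 annotated Serpin symbols have no row in the table as used here.

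All 10 libraries came from livers of C57BL/6 mice aged 6 weeks, on regular chow and fasted for 15 h. The 5 Nrf2Act-hep libraries came from animals whose label gives NRF2 activation specific to the liver, with no allele, promoter or Cre driver named, and the 5 others came from WT animals. Sample titles end in M for Nrf2Act-hep replicates 6 to 8 and WT replicates 1 and 2, and in F for Nrf2Act-hep replicates 9 and 10 and WT replicates 3 to 5. NRF2 switches on genes of antioxidant defence and detoxification, and the series title asks how its activity relates to growth factor genes, AKT signalling and liver size. Separate mice are not stated for the libraries, so a p-value reflects the scatter among these libraries, part of which may be technical.

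A typical inhibitory serpin presents an exposed reactive centre loop to a protease as bait. Once the loop is cut it inserts into the body of the serpin, and the protease is trapped in a covalent complex. Hepatocytes are the main source of the serpins of blood plasma, among them alpha-1 antitrypsin, antithrombin, heparin cofactor II, C1 inhibitor and alpha-2-antiplasmin. Some members inhibit nothing and act as hormone carriers or chaperones, and most clade B serpins stay inside cells, where they act on proteases of leukocytes.

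Values are CPM, reads scaled to a common library total, after TMM scaling unless stated otherwise. The QuantSeq kit reads 1 tag near the 3′ end of a transcript, so a CPM value does not grow with transcript length and levels of different genes can be set side by side. Recovered depth was 2167528 to 2806670 reads in Nrf2Act-hep libraries and 1267745 to 2287727 in WT libraries, so 3 reads stood for 1.07 to 1.38 CPM in Nrf2Act-hep and 1.31 to 2.37 CPM in WT. The title letters fitted the reads of Xist and the Y-linked gene Ddx3y in 10 of 10 libraries. Of 19 known NRF2 targets that passed the filter on low values, 17 were called higher in Nrf2Act-hep, against 2.79% of all genes tested. Calls were made by limma with Benjamini-Hochberg adjustment over 8075 genes. Among these targets, Cbr3 passed the filter through its Nrf2Act-hep libraries alone, since it stood at 0 to 0.676 CPM in WT. Hepatocyte markers were abundant in every library, with a summed level of 33492 to 42361 CPM in Nrf2Act-hep and 44276 to 53123 CPM in WT over 7 genes.

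Serpin transcripts took 1.06% to 1.59% of the reads of a Nrf2Act-hep library and 1.09% to 1.57% of a WT library. The summed level of the 41 genes was 12962 ± 2468 CPM in Nrf2Act-hep and 13921 ± 1722 CPM in WT (SD, n = 5 each). The ranges of the sums overlapped, with 9992 to 15375 CPM in Nrf2Act-hep and 12044 to 15666 CPM in WT. A few plasma serpins made up most of this total. Serpina3k, a member of a group of antichymotrypsin-like genes that is expanded in mice, held 35.1% of the family's mean CPM. The 5 alpha-1 antitrypsin genes Serpina1a to Serpina1e held another 45.2%. Together with Serpinc1, which encodes antithrombin, they were the top 7 genes and held 89.7%.

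**Figure D1:**
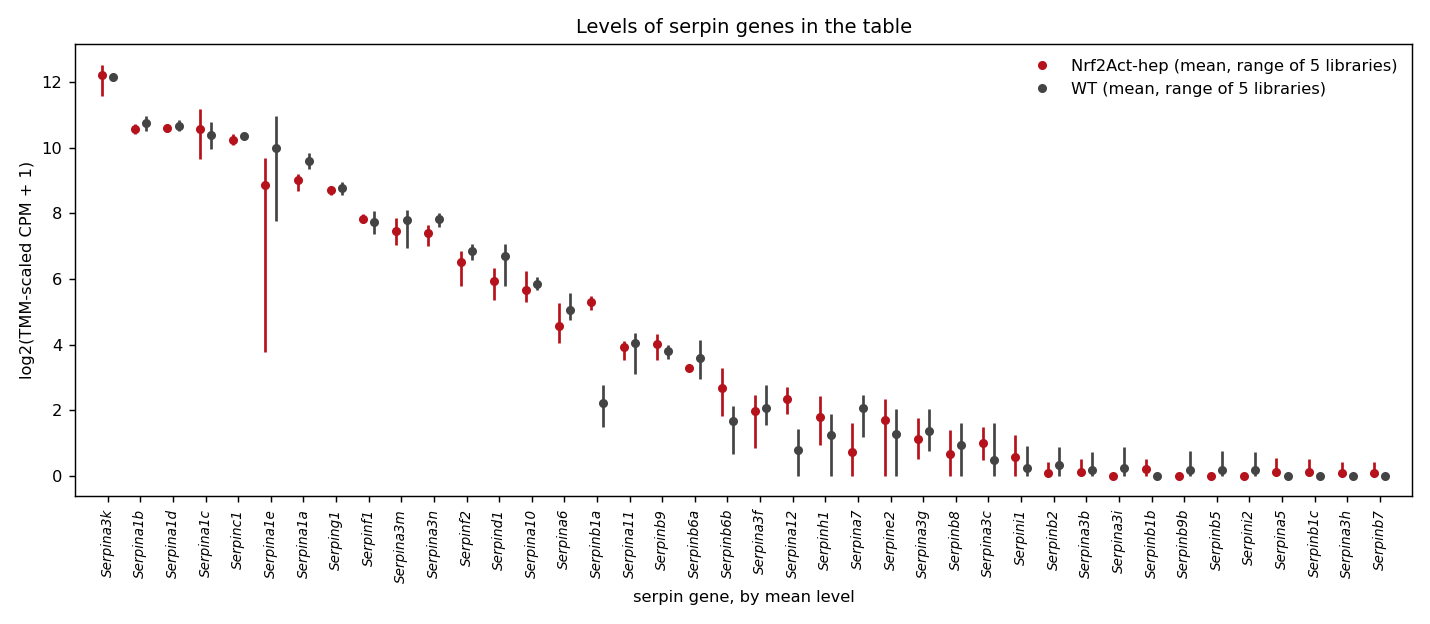
Mean level of 40 of the serpin genes on the log2(CPM + 1) scale, in order of the mean over all libraries. Dots are means and lines span the 5 libraries of a genotype, Nrf2Act-hep in red left of WT in grey. Serpinb1a and Serpina12 stand above WT with no overlap of the lines, Serpina1a stands below WT with none, and the Serpina1e lines are the longest among the 10 most abundant genes.

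The plot of levels orders the genes by abundance. A filter of 4.50 CPM in 5 or more libraries, which is 10 reads in a library of median depth, kept 19 members and left 22 below it. Of those 22, 10 had at least 10 reads over all libraries and the other 12 had fewer. Transcripts of 11 genes were at 1 to 3 reads in all 10 libraries together, namely Serpina3b, Serpina3h, Serpina3i, Serpina5, Serpinb1b, Serpinb1c, Serpinb2, Serpinb5, Serpinb7, Serpinb9b and Serpini2, and Serpini1, neuroserpin, had 8. Of these, Serpina5 is known as the protein C inhibitor and Serpinb2 as plasminogen activator inhibitor 2. No level can be compared between genotypes for these at this depth.

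Among the 19 members tested for genotype, 1 was higher in Nrf2Act-hep (Serpinb1a) and 1 was lower (Serpina1a) by limma at an adjusted p under 0.05. Over all genes tested, 2.79% were called higher and 1.86% lower, or 4.64% in either direction. Library values did not overlap between genotypes for the same 2 members, against a background of 3.05% of genes higher, 2.09% lower and 5.14% in either direction. The log2 fold change was below 0 in 16 of the 19 members, and its median was -0.17, against 0.005 over all 8075 genes, of which 49.3% were below 0. Among the 17 members that were not called, the widest 95% interval was that of Serpina1e.

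**Figure D2:**
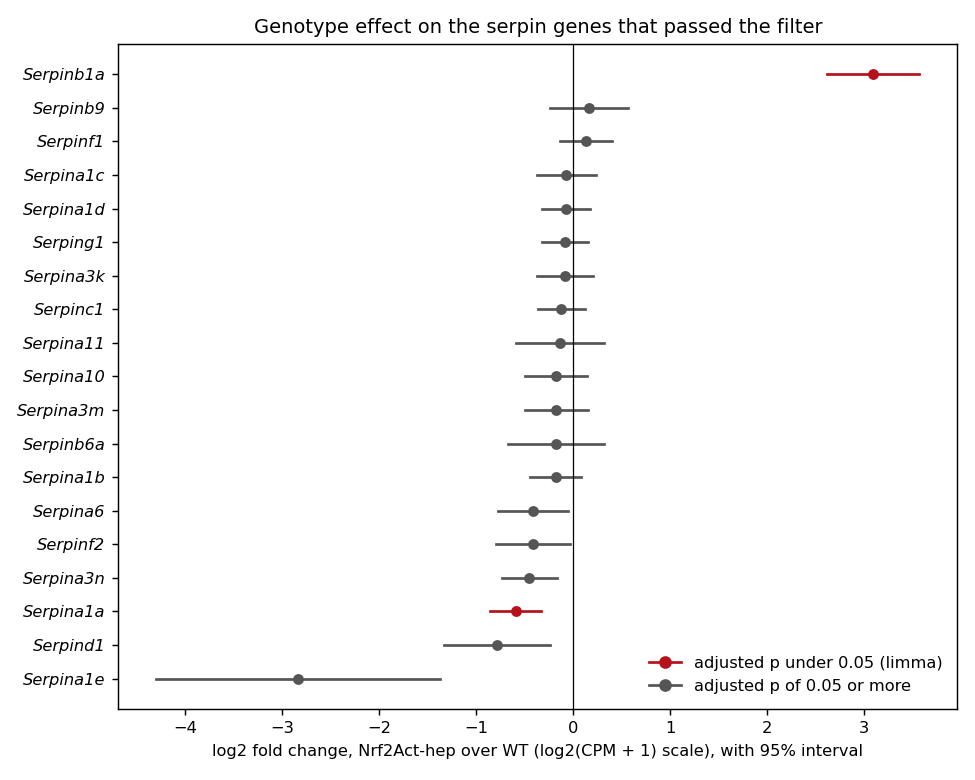
Log2 fold change of Nrf2Act-hep over WT for the 19 serpin genes that passed the filter, with 95% intervals, from limma with the title letter as covariate. Serpinb1a stands at 3.10 and Serpina1a at -0.59, both in red as called genes. The grey interval of Serpina1e, centred at -2.83, runs from -4.30 to -1.37.

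Serpinb1a was the 1 member called higher. It encodes a cytosolic inhibitor of neutrophil serine proteases such as elastase, and the protein has also been studied as a liver-derived factor that acts on pancreatic beta cells. Its level was 38.3, 41.01, 43.3, 31.9 and 39.0 CPM in the Nrf2Act-hep libraries, against 4.73, 4.18, 1.91, 5.81 and 1.78 CPM in the WT libraries. Every Nrf2Act-hep library was above every WT library, and the WT values rested on 29 reads in all, against 477 reads in Nrf2Act-hep. The means were 38.7 ± 4.25 CPM in Nrf2Act-hep and 3.68 ± 1.78 CPM in WT (SD, n = 5 each). On the log2(CPM + 1) scale the fold change was 3.10 ± 0.23 (SE), with a limma adjusted p of 2.3e-09. The ratio of the depth-scaled reads was 11.9, with an exact 95% interval of 8.17 to 17.9 that covers counting error only. The gene passed the filter through its Nrf2Act-hep libraries, since only WT replicates 1 and 4 were above 4.50 CPM.

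The rise of Serpinb1a was seen within each title letter. In M libraries alone the log2 fold change was 2.94 (limma adjusted p = 8.3e-08) and in F libraries alone it was 3.25 (limma adjusted p = 0.000128). Neutrophils are known to carry this serpin. Over the 6 genes of the neutrophil list in the table the summed level was 7.39 to 15.1 CPM in Nrf2Act-hep and 10.8 to 85.5 CPM in WT. S100a8 and S100a9, which made up most of it, averaged 5.49 and 5.41 CPM in Nrf2Act-hep and 18.5 and 16.8 CPM in WT. Elane, Mpo, Ngp and Csf3r averaged 0.0851, 0.152, 0.148 and 0.476 CPM in Nrf2Act-hep and 0.462, 0.167, 0.511 and 0.127 CPM in WT, each from at most 7 reads in all. The part of these cells in the result was not tested. In bulk tissue, more cells of a type and more RNA per cell cannot be told apart. The paralogs Serpinb1b and Serpinb1c had 2 reads and 1 read over all libraries.

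Below is the coding stretch of the reactive centre loop of Serpinb1a, the serpin that rose, beside its paralog Serpinb1b, to show how far the bait region differs within this pair. Each line gives 27 codons starting at the conserved hinge of the loop, coding bases 982 to 1062 of each GENCODE transcript, with capitals where Serpinb1b differs from Serpinb1a.
Serpinb1a: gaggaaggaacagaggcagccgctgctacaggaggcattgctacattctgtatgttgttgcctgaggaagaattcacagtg
Serpinb1b: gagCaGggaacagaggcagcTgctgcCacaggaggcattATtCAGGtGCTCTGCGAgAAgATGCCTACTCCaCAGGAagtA
The hinge at the start of the stretch was nearly the same in both genes, while 38 of the 81 bases differed, most of them in the bait region that follows. Every stretch of 75 bases, the read length, in the last 500 bases of the Serpinb1a transcript was unique among annotated transcripts, so its reads could be told from those of its paralogs.

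The alpha-1 antitrypsin genes lie side by side on chromosome 12 and are copies of 1 ancestral gene. Alpha-1 antitrypsin is known as the main plasma inhibitor of neutrophil elastase, and the mouse copies differ most in the loop that faces the protease. Which proteases each copy inhibits cannot be read from these data. Loop sequences of the 5 copies are shown because the copies gave unlike results for genotype and title letter. Each line again gives 27 codons from the hinge, coding bases 1150 to 1230 for Serpina1a and 1081 to 1161 for the others, with capitals where the copy differs from Serpina1b.
Serpina1a: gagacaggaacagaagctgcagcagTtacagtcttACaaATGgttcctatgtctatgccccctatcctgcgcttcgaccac
Serpina1b: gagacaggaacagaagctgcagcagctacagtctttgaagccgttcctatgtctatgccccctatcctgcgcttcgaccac
Serpina1c: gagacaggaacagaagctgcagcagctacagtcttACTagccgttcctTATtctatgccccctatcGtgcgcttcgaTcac
Serpina1d: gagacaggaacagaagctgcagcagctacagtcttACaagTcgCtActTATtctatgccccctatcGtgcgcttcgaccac
Serpina1e: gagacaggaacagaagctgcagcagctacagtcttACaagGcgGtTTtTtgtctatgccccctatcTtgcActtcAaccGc
Serpina1e differed from Serpina1b at 11 of the 81 bases, Serpina1d at 9, Serpina1c at 8 and Serpina1a at 6. Most differences fell in the middle of the stretch, in and around the bait residues.

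Serpina1a fell in Nrf2Act-hep livers. Its level was 559, 584, 528, 528 and 415 CPM in the Nrf2Act-hep libraries, against 814, 746, 917, 660 and 726 CPM in the WT libraries. The highest Nrf2Act-hep library stayed below the lowest WT library, and the groups did not overlap within M or within F either. The means were 523 ± 64.9 CPM in Nrf2Act-hep and 773 ± 97.7 CPM in WT (SD, n = 5 each), with a log2 fold change of -0.59 ± 0.13 (SE) and a limma adjusted p of 0.0055. Within M alone the log2 fold change was -0.48 (limma adjusted p = 0.105) and within F alone -0.70 (limma adjusted p = 0.133), and neither was past the threshold. Hepatocyte markers had lower sums in Nrf2Act-hep, as given above. Alb, the most abundant of them, averaged 21586 CPM in Nrf2Act-hep and 29502 CPM in WT. By gene, the log2 fold changes of the 7 markers ran from -0.77 for Apoa1 to 0.10 for Cps1, and only Apoa1 was called. The part of these markers in the Serpina1a result was not tested.

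Serpina1e stood at 681, 828 and 776 CPM in the M Nrf2Act-hep libraries and at 12.8 and 25.04 CPM in the F Nrf2Act-hep libraries. In WT it stood at 1855 and 2013 CPM in the M libraries and at 585, 218 and 419 CPM in the F libraries. Within each letter every Nrf2Act-hep library was below every WT library, and within each genotype every M library was above every F library. Across letters the genotypes overlapped.

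The log2 fold change of Serpina1e for genotype was -2.83 ± 0.62 (SE), and its limma adjusted p of 0.051 missed the threshold. M libraries alone gave -1.35 (limma adjusted p = 1.84e-05) and F libraries alone gave -4.32 (limma adjusted p = 0.0204), in fits that called 3.1% and 1.61% of all genes. DESeq2 on the recovered reads (4.53% of genes called) gave -2.87 with an adjusted p of 0.00012. The quasi-likelihood test of edgeR (4.63% called) gave -2.68 with an adjusted p of 0.0939. Across all alternatives the direction stayed negative, and the adjusted p ran from 1.84e-05 in M libraries alone to 0.559 without the letter in the model. Values did not overlap within M nor within F, in the same direction, for 3 of the 19 members, Serpinb1a, Serpina1a and Serpina1e, against 8.17% of all genes tested.

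**Figure D3:**
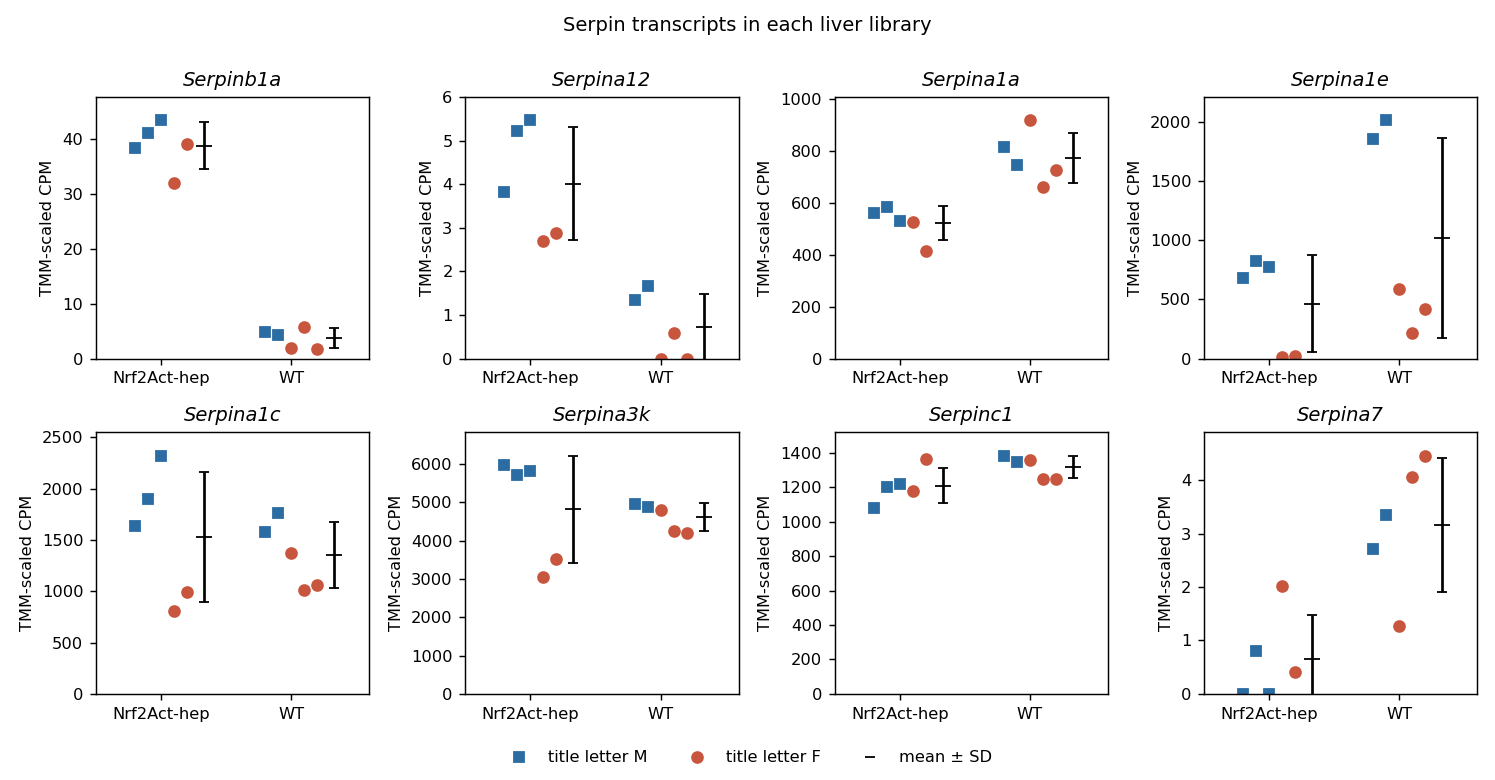
TMM-scaled CPM of 8 serpin genes in each library, Nrf2Act-hep left of WT, with squares for title letter M, circles for F, and bars for the mean ± SD of 5 libraries (cut off at 0). Serpinb1a and Serpina12 are higher in every Nrf2Act-hep library and Serpina1a is lower in every one, while Serpina1e, Serpina1c and Serpina3k separate M from F within each genotype.

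The plot of single libraries shows these patterns beside Serpina1c. That gene stood at 1641, 1896, 2320.2, 804 and 990.05 CPM in the Nrf2Act-hep libraries, the last 2 of them F, against 1578, 1761, 1371, 1011 and 1062 CPM in the WT libraries, the last 3 of them F. Genotype made little difference to its average, with a log2 fold change of -0.07 (95% interval -0.37 to 0.23). Serpina1b stood at 1369, 1525, 1695, 1474 and 1627 CPM in the Nrf2Act-hep libraries, against 1843, 1675, 2031, 1721 and 1461 CPM in the WT libraries. Serpina1d stood at 1479.7, 1633, 1713, 1442 and 1554 CPM in the Nrf2Act-hep libraries, against 1711, 1598, 1837, 1525 and 1474 CPM in the WT libraries. Both genes overlapped between genotypes. Serpina1b averaged 1538 ± 128 CPM in Nrf2Act-hep and 1746 ± 211 CPM in WT, and Serpina1d averaged 1565 ± 111 CPM in Nrf2Act-hep and 1629 ± 147 CPM in WT (SD, n = 5 each). Neither was called, with log2 fold changes of -0.18 (95% interval -0.44 to 0.08) and -0.07 (95% interval -0.32 to 0.18).

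The makeup of the alpha-1 antitrypsin transcripts differed between libraries. Serpina1e gave 11.03% to 12.8% of the summed CPM of the 5 copies in M Nrf2Act-hep libraries and 23.8% to 25.8% in M WT libraries. In F libraries it gave 0.3% to 0.543% in Nrf2Act-hep and 4.25% to 8.68% in WT. The shares add up to a whole, so a lower share of 1 copy raises those of the others. In M libraries Serpina1c gave 28.6% to 32.99% in Nrf2Act-hep and 20.2% to 22.6% in WT, and Serpina1d gave 24.4% to 25.8% in Nrf2Act-hep and 20.5% to 21.9% in WT. In F libraries Serpina1d gave 33.7% to 33.9% in Nrf2Act-hep and 27.3% to 29.7% in WT, and Serpina1b gave 34.6% to 35.3% in Nrf2Act-hep and 28.4% to 33.5% in WT. The sum of the 5 copies was 5620 ± 1182 CPM in Nrf2Act-hep and 6523 ± 1335 CPM in WT (SD, n = 5 each). With the reads of the copies added up before the fit, the log2 fold change of the sum was -0.32.

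**Figure D4:**
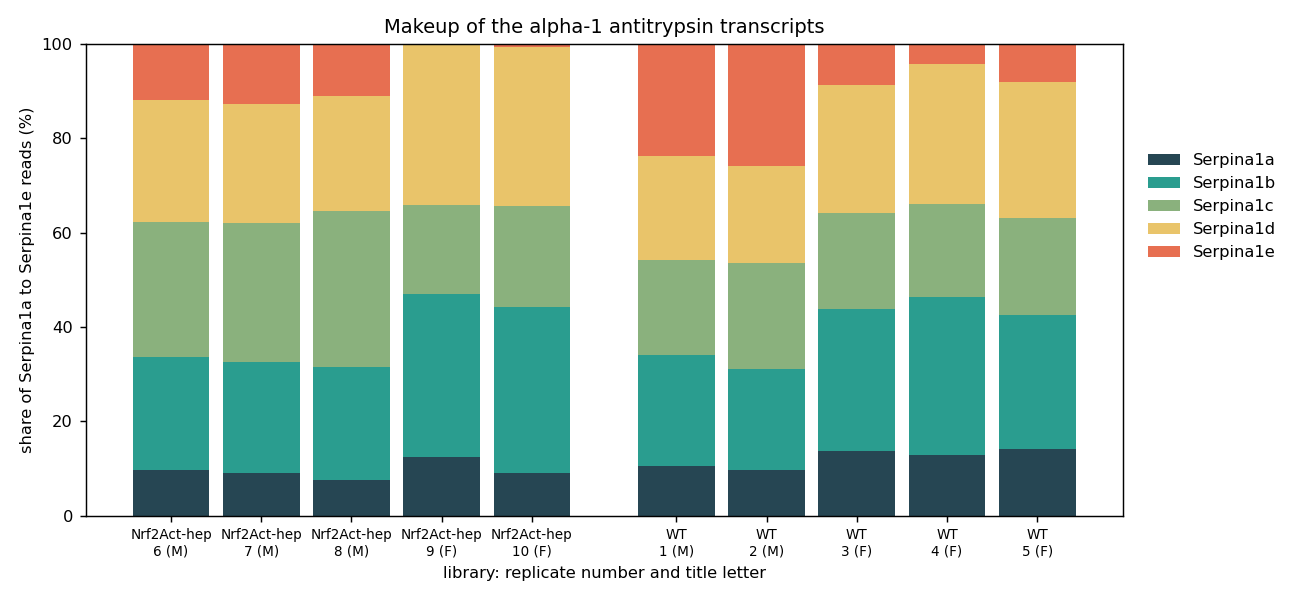
Share of each copy in the summed CPM of Serpina1a to Serpina1e, in percent, for each library with its replicate number and title letter, Nrf2Act-hep left of WT. Serpina1e (orange, at the top) is under 1% in both F Nrf2Act-hep libraries and largest in the M WT libraries, at 23.8% and 25.8%.

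Reads from such similar copies can be misassigned. The last 500 bases of the transcripts were 93.8% to 96.4% identical between copies. Of all stretches of 75 bases in that window, 99.3% were unique to Serpina1e, 91.5% to Serpina1b, 84.3% to Serpina1d, 76.1% to Serpina1c and 70.2% to Serpina1a. In the other 36 members 100% were unique. Serpina1a, the copy called for genotype, was thus the one with the fewest unique stretches, and it shared some with Serpina1b, Serpina1c, Serpina1d and the pseudogene Gm8893. The annotated span of Serpina1b also covers Serpina1d on the same strand. How the authors assigned shared reads is not given in the sources used here, so the split between these copies is uncertain, least so for Serpina1e.

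The start regions of 4 copies are printed because those of Serpina1e and Serpina1b were the most alike of all pairs over their aligned bases. Serpina1e separated the letters and Serpina1b did not. Sequences are RefSeq windows on GRCm38.p6, 250 bases before to 50 after the start, read on the minus strand, and capitals mark aligned bases that differ from Serpina1b. They lie at chr12:103863570-103863869 for Serpina1a, chr12:103738140-103738439 for Serpina1b, chr12:103904901-103905200 for Serpina1c and chr12:103956848-103957147 for Serpina1e.
Serpina1b: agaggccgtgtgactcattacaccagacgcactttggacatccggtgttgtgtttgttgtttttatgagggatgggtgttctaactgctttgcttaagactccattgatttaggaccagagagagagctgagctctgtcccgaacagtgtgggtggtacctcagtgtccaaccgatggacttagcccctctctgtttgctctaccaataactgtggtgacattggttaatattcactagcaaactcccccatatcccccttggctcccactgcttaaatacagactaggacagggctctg
Serpina1e: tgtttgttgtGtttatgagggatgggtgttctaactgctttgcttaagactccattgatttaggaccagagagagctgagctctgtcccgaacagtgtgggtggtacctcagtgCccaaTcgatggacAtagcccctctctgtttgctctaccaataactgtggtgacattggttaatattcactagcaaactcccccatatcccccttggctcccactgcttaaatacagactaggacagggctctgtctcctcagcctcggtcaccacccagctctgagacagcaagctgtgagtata
Serpina1a: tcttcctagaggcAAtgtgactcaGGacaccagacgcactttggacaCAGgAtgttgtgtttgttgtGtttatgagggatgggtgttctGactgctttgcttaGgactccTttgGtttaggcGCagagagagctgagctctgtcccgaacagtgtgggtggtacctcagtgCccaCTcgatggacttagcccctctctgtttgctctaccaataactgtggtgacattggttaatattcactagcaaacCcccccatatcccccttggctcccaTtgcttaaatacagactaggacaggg
Serpina1c: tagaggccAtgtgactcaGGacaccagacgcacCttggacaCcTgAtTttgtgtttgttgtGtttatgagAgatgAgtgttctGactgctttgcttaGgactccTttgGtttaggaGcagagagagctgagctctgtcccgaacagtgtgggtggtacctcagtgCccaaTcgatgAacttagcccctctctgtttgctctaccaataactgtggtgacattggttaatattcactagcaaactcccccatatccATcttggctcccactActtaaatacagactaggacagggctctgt
Serpina1e and Serpina1b were 97.6% identical over 250 aligned bases, with 6 positions that differed, of which 4 are bases in capitals and 2 are bases missing from the Serpina1e window. Serpina1a differed from Serpina1b at 22 of 295 aligned positions and Serpina1c at 24 of 300. The annotated starts differ by some bases between copies, so the ends of the windows are not all aligned. Pairs with Serpina1e were aligned over 239 to 250 bases and the other pairs over 290 to 300, so identities cover unlike stretches.

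Motifs were searched on both strands in these windows for 33 members that had one, against 32841 windows of the whole RefSeq table. Serpinb1a and Serpina3k had no window, so their start regions were not searched. The core of the NRF2 element, TGACNNNGC, stood in windows of 2 members, Serpinb6a and Serpind1, and in 12.4% of all windows. GTTAAT, part of the motif of the hepatocyte factor HNF1, stood in 9 members, all 5 alpha-1 antitrypsin copies included, and in 7.1% of all windows. The STAT element TTCNNNGAA stood in 6 members and in 8.3% of all windows. Each motif was counted on its own, and a match describes the letters of a window, not binding.

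Some plasma serpins differed between the title letters. By limma with genotype in the model, 2 of the 19 members were higher in M and none was lower, against 0.594% of all genes higher in M, 0.57% lower and 1.16% in either direction. Serpina1e averaged 1231 ± 647 CPM in M and 252 ± 249 CPM in F (SD, n = 5 each), with a log2 difference of 3.84 ± 0.62 (SE) and a limma adjusted p of 0.0367. Serpina1c averaged 1839 ± 295 CPM in M and 1048 ± 206 CPM in F, with a log2 difference of 0.83 ± 0.15 (SE) and a limma adjusted p of 0.00315. The call for Serpina1c held in 23 of 24 alternatives and that for Serpina1e in 11 of 24. Leaving out any 1 library other than WT replicate 3 ended the call for Serpina1e, and over all libraries left out in turn its limma adjusted p ran from 0.0355 to 0.138.

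Serpina3k averaged 5464 ± 512 CPM in M and 3967 ± 674 CPM in F with no overlap, but its log2 difference of 0.49 had a limma adjusted p of 0.106. DESeq2 (adjusted p = 0.0319) and limma without a filter (adjusted p = 0.00359) called it, and edgeR's quasi-likelihood test (adjusted p = 0.144) did not. Serpina6 and Serpina3m pointed the other way, at -0.57 (limma adjusted p = 0.153) and -0.51 (limma adjusted p = 0.167). The letters were unevenly split between genotypes, so the letter effect was also fitted within each genotype. In Nrf2Act-hep alone (0.718% of all genes called) it was 5.33 for Serpina1e (limma adjusted p = 5.02e-10), 1.12 for Serpina1c (limma adjusted p = 0.00396) and 0.83 for Serpina3k (limma adjusted p = 0.0351). In WT alone (0.929% called) it was 2.34 for Serpina1e (limma adjusted p = 0.0138), 0.54 for Serpina1c (limma adjusted p = 0.289) and 0.15 for Serpina3k (limma adjusted p = 0.858).

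Whether the genotype effect differed between letters was tested as an interaction, the effect in F minus the effect in M. None of the 19 members passed the adjusted threshold in limma, and 2 had an unadjusted p under 0.05, against 0.0248% of all genes called and 7.13% with an unadjusted p under 0.05. DESeq2 called 1 member (0.186% of all genes) and edgeR's quasi-likelihood test called 0 (0.0372% of all genes). For Serpina1e the interaction was -2.97 ± 0.54 (SE), with a limma unadjusted p of 0.000303 and an adjusted p of 0.131, and 0.00079 in DESeq2. Leaving out WT replicate 3, WT replicate 4 or Nrf2Act-hep replicate 10 brought it to 0.0273, 3.81e-05 or 0.0208, and the highest value over all alternatives was 0.476. For Serpina3k it was -0.67 ± 0.24 (SE), with a limma unadjusted p of 0.0126 and an adjusted p of 0.588.

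**Figure D5:**
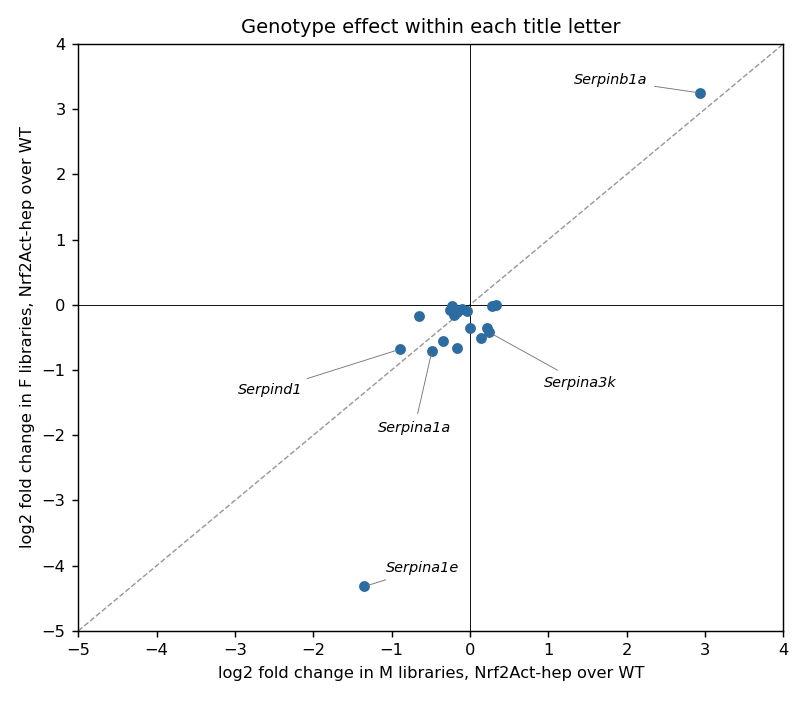
Log2 fold change of Nrf2Act-hep over WT in M libraries (horizontal) and in F libraries (vertical) for the 19 serpin genes that passed the filter, 1 dot a gene, with the line of equal effects dashed. Serpinb1a lies near the line at 2.94 and 3.25, Serpina1e lies below it at -1.35 and -4.32, and Serpina3k has opposite signs, 0.25 and -0.42.

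In the plot of effects by letter most members lie close to 0 on both axes. Serpina3k, the most abundant member, stood at 5976, 5704, 5810.1, 3066 and 3531 CPM in the Nrf2Act-hep libraries, the last 2 of them F, against 4948, 4879.8, 4796, 4245 and 4198 CPM in the WT libraries, the last 3 of them F. All M Nrf2Act-hep libraries were above, and both F Nrf2Act-hep libraries below, every WT library. Its average was 4817 ± 1400 CPM in Nrf2Act-hep and 4613 ± 362 CPM in WT (SD, n = 5 each), with a log2 fold change of -0.09 (95% interval -0.38 to 0.20).

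The other antichymotrypsin-like genes of chromosome 12 were less abundant. Serpina3n, an acute phase serpin known to inhibit granzyme B and cathepsin G, stood at 144, 177, 198, 196 and 128 CPM in the Nrf2Act-hep libraries, against 247, 192, 227, 259 and 216 CPM in the WT libraries. The groups overlapped through WT replicate 2, and the log2 fold change of -0.45 ± 0.14 (SE) had a limma adjusted p of 0.0679. Leaving out WT replicate 2, Nrf2Act-hep replicate 8 or Nrf2Act-hep replicate 9 brought it to 0.0381, 0.0485 or 0.0378. Serpina3m stood at 191, 161, 130.3, 229.99 and 175 CPM in the Nrf2Act-hep libraries, against 209, 121, 273, 219 and 278 CPM in the WT libraries, with wide overlap. It averaged 177 ± 36.9 CPM in Nrf2Act-hep and 220.1 ± 63.2 CPM in WT (SD, n = 5 each) and was not called. Its annotated gene starts at the same base as Serpina3k on the same strand, so reads of the shared part could be split either way. Serpina3f and Serpina3g had 64 and 29 reads over all libraries, and Serpina3c had 15. Serpina3b and Serpina3i had 2 reads and 1 read.

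Serpins of coagulation, fibrinolysis and complement ranged widely in abundance, and none was called for genotype. Serpinc1, antithrombin, the main inhibitor of thrombin and factor Xa, stood at 1081, 1202, 1222, 1179 and 1366 CPM in the Nrf2Act-hep libraries, against 1383, 1348, 1361, 1251 and 1248 CPM in the WT libraries. The groups overlapped through Nrf2Act-hep replicate 10. Its mean was 1210.1 ± 103 CPM in Nrf2Act-hep and 1318 ± 64.1 CPM in WT (SD, n = 5 each), with a log2 fold change of -0.12 (95% interval -0.37 to 0.12). Serping1, the C1 inhibitor of complement and the contact system, stood at 394, 454, 428, 433 and 375 CPM in the Nrf2Act-hep libraries, against 493, 421, 441, 381 and 441 CPM in the WT libraries. Its mean was 417 ± 31.5 CPM in Nrf2Act-hep and 435 ± 40.3 CPM in WT, with a log2 fold change of -0.08 (95% interval -0.32 to 0.16).

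Serpind1, heparin cofactor II, a thrombin inhibitor, stood at 69.8, 64.3, 48.3, 79.0 and 39.8 CPM in the Nrf2Act-hep libraries, against 120, 105, 132, 54.0 and 103 CPM in the WT libraries. Only WT replicate 4 lay within the Nrf2Act-hep range. The log2 fold change was -0.79 ± 0.25 (SE) with a limma adjusted p of 0.124, which became 0.00237 once WT replicate 4 was left out and 0.018 once Nrf2Act-hep replicate 9 was. M libraries alone gave -0.89 (limma adjusted p = 0.00661) and F libraries alone -0.68 (limma adjusted p = 0.669). On all libraries DESeq2 gave an adjusted p of 0.016 and edgeR's quasi-likelihood test 0.125, and without a filter limma gave 0.303. In all, 4 of 25 alternatives called it. Serpinf2, alpha-2-antiplasmin, averaged 90.9 ± 25.7 CPM in Nrf2Act-hep and 116 ± 16.3 CPM in WT (SD, n = 5 each) and had a log2 fold change of -0.42 with a limma adjusted p of 0.26. Its log2 fold change was -0.19 once Nrf2Act-hep replicate 10 was left out, and it was -0.17 in M libraries alone and -0.67 in F libraries alone. Serpina10, the protein Z-dependent inhibitor of factor Xa, averaged 49.9 ± 15.3 CPM in Nrf2Act-hep and 56.8 ± 6.12 CPM in WT and had a log2 fold change of -0.17.

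Serpinf1, pigment epithelium-derived factor, is a secreted serpin that does not inhibit proteases. It stood at 225, 217, 252, 241 and 211 CPM in the Nrf2Act-hep libraries, against 216, 166, 192, 268 and 232 CPM in the WT libraries, which spanned the wider range. It averaged 229 ± 16.98 CPM in Nrf2Act-hep and 215 ± 39.0 CPM in WT (SD, n = 5 each), and its log2 fold change of 0.13 was 1 of the 3 above 0. Serpina11 averaged 14.1 ± 2.21 CPM in Nrf2Act-hep and 15.6 ± 4.67 CPM in WT, with a log2 fold change of -0.14. Neither was called.

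Some serpins carry hormones. Serpina6, corticosteroid-binding globulin, stood at 20.01, 16.1, 15.5, 37.3 and 25.5 CPM in the Nrf2Act-hep libraries, against 29.1, 25.9, 46.5, 31.4 and 29.0 CPM in the WT libraries. Its log2 fold change was -0.41 ± 0.17 (SE) with a limma adjusted p of 0.232. Serpina7, thyroxine-binding globulin, was below the filter, with 9 reads in all Nrf2Act-hep libraries and 27 in all WT libraries. Its mean was 0.65 ± 0.84 CPM in Nrf2Act-hep and 3.17 ± 1.25 CPM in WT (SD, n = 5 each), and only the Nrf2Act-hep replicate 9 value exceeded that of any WT library. An exact two-sided permutation test gave p = 0.0159, adjusted to 0.414 over 4694 genes below the filter. That test had no term for the title letter, and Serpina7 averaged 1.37 CPM in M and 2.44 CPM in F.

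Agt, the angiotensinogen gene, is a serpin by descent that the symbol rule does not take in. It averaged 174 ± 41.4 CPM in Nrf2Act-hep and 235 ± 37.8 CPM in WT (SD, n = 5 each), with a log2 fold change of -0.37 and a limma adjusted p of 0.134.

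Intracellular clade B serpins other than Serpinb1a were low in both genotypes. In WT, Serpinb9 and Serpinb6a nevertheless averaged more than Serpinb1a, which stood at 3.68 CPM there. Serpinb9, which protects cells from granzyme B, averaged 15.1 ± 3.47 CPM in Nrf2Act-hep and 12.8 ± 1.82 CPM in WT (SD, n = 5 each), with a log2 fold change of 0.17. Serpinb6a, a cytosolic protease inhibitor, averaged 8.71 ± 0.68 CPM in Nrf2Act-hep and 11.1 ± 4.72 CPM in WT, with a log2 fold change of -0.18. Serpinb6a overlaps Nqo2 and Ripk1 on the opposite strand, and without a stated strand setting their reads cannot be told apart. Serpinb6b had 6, 22, 19, 8 and 11 reads in the Nrf2Act-hep libraries and 5, 2, 4, 1 and 6 in the WT libraries, and its exact two-sided permutation p of 0.0476 became 0.516 after adjustment over 4694 genes.

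Serpina12 encodes vaspin, known as a secreted adipokine that inhibits kallikrein 7. It had 9, 13, 12, 8 and 7 reads in the Nrf2Act-hep libraries and 2, 2, 0, 1 and 0 in the WT libraries. Its mean was 4.02 ± 1.29 CPM in Nrf2Act-hep and 0.72 ± 0.77 CPM in WT (SD, n = 5 each), and no Nrf2Act-hep library came as low as the highest WT library. The ratio of the depth-scaled reads was 7.08, with an exact 95% interval of 2.84 to 22.8 for counting error only. Each WT library was at or under 3 reads, the floor of a library.

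The exact two-sided permutation p of Serpina12 was 0.0079, the smallest that 5 against 5 libraries can give, and its adjusted p was 0.345. The test had no term for the title letter, and the gene averaged 3.51 CPM in M and 1.23 CPM in F. Within each letter every Nrf2Act-hep library was above every WT library. Of the 4694 genes below the filter with at least 10 reads, 2.3% had values that did not overlap and 9.22% an unadjusted p under 0.05, and none was called after adjustment. A lower filter put Serpina12 into the limma fit, with an adjusted p of 0.00421 at 1 CPM in 5 libraries (3.67% of 11215 genes called) and 0.00249 with no filter (2.34% of 18869 called). Serpina7 was also called lower in those fits, at 0.0325 and 0.0183. The filter of 1 CPM in 5 libraries took Serpina12 in through its Nrf2Act-hep libraries, all at 2.69 CPM or more (WT median 0.58 CPM). Serpina7 met it through its WT libraries, all at 1.27 CPM or more (Nrf2Act-hep median 0.41 CPM).

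Of the remaining low members, Serpinh1, the collagen chaperone HSP47, had 32 reads in Nrf2Act-hep and 12 in WT. Serpine2, protease nexin 1, had 27 in Nrf2Act-hep and 13 in WT. Neither had an unadjusted permutation p under 0.05 (exact two-sided p of 0.183 and 0.365), nor did Serpinb8, with 7 reads in each genotype (exact two-sided p of 0.548). Nrf2Act-hep libraries were deeper, so read sums of such genes favour Nrf2Act-hep before scaling.

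Few of the genes that work with plasma serpins were called for genotype. Of 18 proteases that serpins act on, 0 were called for genotype, and their median log2 fold change was -0.20. The 2 most abundant, Plg, the plasminogen gene, and Ctsl, a cathepsin, had log2 fold changes of -0.43 (limma adjusted p = 0.103) and 0.08 (limma adjusted p = 0.853). Of 12 other coagulation genes also 0 were called, with a median of -0.11. The fibrinogen genes Fgb and Fgg, the most abundant of that list, stood at -0.42 (limma adjusted p = 0.0779) and -0.59 (limma adjusted p = 0.0981). All counts and medians of these lists and of those below are set against 4.64% called and a median of 0.005 over all genes.

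Among 22 protease inhibitors of other families 3 fell and none rose, with a median of -0.14, against 1.86% of all genes called lower. Ahsg, fetuin A, fell by 0.72 on the log2 scale (limma adjusted p = 0.00113), and the inter-alpha-trypsin inhibitor heavy chains Itih4 and Itih3 fell by 0.79 (limma adjusted p = 0.0445) and 0.66 (limma adjusted p = 0.0378). Among 22 acute phase genes 4 fell, against the same 1.86%, with a median of -0.33. Beside Itih4 these were the haptoglobin gene Hp at -0.69, the hemopexin gene Hpx at -0.67 and the ceruloplasmin gene Cp at -0.44 (limma adjusted p of 0.00102, 0.0315 and 0.0363). The hepatocyte transcription factor list had 1 of 12 lower, Onecut1 at -1.28 (limma adjusted p = 0.00522). Prox1 and Hnf4a stood at 0.08 and -0.09, and neither was called.

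Of 20 secretory pathway and folding genes 1 rose, Hspa5, the main chaperone of the endoplasmic reticulum, at 0.61 (limma adjusted p = 0.0344), with a median of 0.17. The list of collagen genes and collagen-modifying enzymes had 1 of 11 lower, Sparc at -0.74 (limma adjusted p = 0.000186). Sparc itself encodes neither a collagen nor such an enzyme. The list of hormone carriers and the angiotensin system had 1 of 11 lower, Nr3c1 at -0.55 (limma adjusted p = 0.0368). Nr3c1 encodes the glucocorticoid receptor, not a carrier. Over all genes tested 2.79% were called higher and 1.86% lower, and a single call is no result about its list. Of the NRF2 targets, Cbr3 and Gstm3 showed rises of 7.17 and 3.69 on the log2(CPM + 1) scale. Their WT means were 0.135 and 8.53 CPM, so the size of the Cbr3 rise depends on the added 1. The rises are set beside the 3.10 of Serpinb1a as values only.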

How the data were processed

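The authors deposited 1 table of CPM values for 18869 Ensembl identifiers in 10 liver libraries, made per the labels' protocols with the Lexogen QuantSeq 3′ FWD kit and single reads of 75 bases. Per the submitters' processing notes the genome was GRCm38. The sources used here do not name the aligner, the counting tool or the strand setting. Every column had the same sum, and 100% of the deposited CPM values were whole multiples of 1 read within 0.01 read, so reads were recovered. Symbols came from GENCODE M21 (18799 identifiers had one, 70 did not).

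The main test was limma 3.58.1 (R 4.3.3), with trend and robust moderation, on log2(CPM + 1), with TMM factors from edgeR 4.0.16 and with genotype and title letter as terms. Genes needed 4.50 CPM (10 reads at median depth) in 5 or more libraries and 15 or more reads in total. Benjamini-Hochberg adjustment ran over 8075 genes, and calls were made under 0.05. Fold changes on this scale understate the change of low genes. Genes below the filter with at least 10 reads were tested by an exact permutation test over the 10 libraries, without the title letter as a term. On the recovered reads edgeR's quasi-likelihood test called 374 genes for genotype and DESeq2 1.42.0 called 366. Other alternatives were limma-voom, other pseudocounts, filters and scalings, each letter alone and each library left out. TMM factors from all genes, and each genotype alone for the letter, were added after seeing the data. The tests were checked on simulated reads.

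The members, gene lists and tests were chosen with earlier results of these data known. Named in full were members past a threshold, without overlap between genotypes, or among the 10 highest in mean CPM. Other members are accounted for by reads or CPM, except 1 below the filter that is not reported here. Genes named from a list came from up to 4 called genes with the largest change. Where fewer than 2 were called, they came from the called gene and the 2 highest in mean CPM. Not all of these genes were named.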

Additional observations from a re-analysis of the deposited data

Results flagged for a closer look

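Serpina6, the corticosteroid-binding globulin gene, had 1 WT library that stood apart from the other 4. Replicate 3, an F library, was at 46.49 CPM, and the other WT libraries were at 25.9 to 31.4 CPM. The gap was larger than Dixon's critical value of 0.71 allows for 5 libraries. In all, 38 groups of 5 were examined and 1 exceeded it, where chance alone gives about 1 in 20. The log2 fold change of Serpina6 for genotype was -0.34 without that library (limma adjusted p = 0.378) and -0.41 with it (limma adjusted p = 0.232).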

How the results depend on the processing

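The count of members called for genotype, 2 in the analysis reported, was 4 with DESeq2, 4 with no filter, 4 with a filter of 1 CPM in 5 libraries and 1 with near-identical copies summed, and 2 to 4 with a library left out. Serpinb1a was called higher under all 25 alternatives, and Serpina1a was called lower under 22 of 24, all but M libraries alone and F libraries alone. The count for the letter, 2, was 1 with edgeR under TMM or RLE factors, 1 without the genotype term, 1 in WT libraries alone and 0 with copies summed, and 1 to 2 with a library left out. The count for the interaction, 0, was 1 with DESeq2 and 0 to 1 with a library left out. No member below the filter was called under any of 11 alternatives. Over all genes, 130 to 464 were called for genotype, 47 to 147 for the letter and 1 to 18 for the interaction, against 375, 94 and 2.

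No called member changed sign for genotype. Without TMM scaling the median log2 fold change over all genes was 0.13, against 0.005 with it, and 5 uncalled members crossed 0: Serping1 (0.0503), Serpinc1 (0.0077), Serpina3k (0.043), Serpina1d (0.059) and Serpina1c (0.062). M libraries alone turned Serpina3k (0.25), Serpinb6a (0.15) and Serpina1c (0.21), and F libraries alone turned Serpinf1 (-0.025) and Serpinb9 (-0.0047). Without the letter term Serpina3k stood at 0.011 and Serpina1c at 0.10. Leaving out a library gave -0.17 to 0.025 for Serpina3k and -0.16 to 0.05 for Serpina1c, with the positive values without Nrf2Act-hep replicate 9 (0.025 and 0.05) and, for Serpina1c, without WT replicate 3 (0.018). The cause was not tested.

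No paired analysis was possible because the replicate numbers run from 1 to 10 and no number occurs in both genotypes. Depth limits the 22 members below the filter, where 3 reads already stand for 1.07 to 2.37 CPM. Intervals on reads cover counting error only.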

Other observations

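Marker genes of liver cells were compared by limma, which called 4.64% of all genes for genotype. In these lists, 0 of 7 stellate cell genes, 0 of 10 sinusoidal endothelial genes, 0 of 2 cholangiocyte genes and 0 of 5 red blood cell genes that passed the filter were called. Among 12 Kupffer cell and macrophage genes 1 was lower, Timd4, at 5.42 ± 2.66 CPM in Nrf2Act-hep and 10.9 ± 1.56 CPM in WT (SD, n = 5 each; limma adjusted p = 0.0337). Of 7 hepatocyte markers 1 was lower, the apolipoprotein gene Apoa1, which stood at -0.77 on the log2 scale (limma adjusted p = 0.00149). Markers of T and NK cells, B cells and platelets were all below the filter, with summed levels of at most 8.51 CPM in Nrf2Act-hep libraries and 7.13 CPM in WT libraries. Their part in the serpin results was not tested.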
